A study of Mus musculus with 11 samples.

Results

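Cells without the reporter were compared between the adrenal cortex and the adrenal medulla of Nestin-GFP mice, over all genes of the deposited count table. The comparison used 5 of the 11 libraries of the study: 3 of GFP-negative cells from the cortex and 2 of GFP-negative cells from the medulla. All mice were males of the strain Nes-GFP, in which green fluorescent protein is made under control of the regulatory sequence of Nestin, the gene of an intermediate filament of progenitor cells. The labels give no drug or other intervention. Tissue of 6 mice was pooled by cortex and medulla in 3 groups of 2 mice, and each library came from 180 to 300 sorted cells. Cortical libraries 1 and 2 and both medullary libraries came from mice of about 3.5 months, and cortical library 3 came from mice of about 2.5 months. The labels tie no library to a pool, so p-values measure the spread between these libraries, part of which may be technical. The gate was defined by absence of the reporter, so each group is a mixture of all such cells of a tissue and not 1 cell type. The other 6 libraries, of GFP-positive cells, entered the estimate of the spread and the last comparison.

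The adrenal gland joins 2 endocrine tissues. Its cortex makes steroid hormones from cholesterol inside mitochondria, aldosterone in the outer zona glomerulosa under angiotensin and corticosterone in the zona fasciculata under adrenocorticotropic hormone (ACTH). Its medulla is made of chromaffin cells, relatives of sympathetic neurons that store catecholamines with granins and peptides in dense-core granules. They release them when acetylcholine from the splanchnic nerve depolarises the cell. Blood flows from the cortex through the medulla, so medullary cells meet high levels of corticosteroid.

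The 5 libraries held 26274085, 26052516 and 24321018 counts in genes for the cortex and 29204212 and 24465910 for the medulla. Levels are given in CPM, counts scaled to library size after TMM normalization, which sets the bulk of genes level between libraries, and 3 counts correspond to 0.110 to 0.122 CPM. In lists of values, cortical libraries 1, 2 and 3 come first and medullary libraries 1 and 2 after them. A log2 difference in parentheses is a size, in the direction that its sentence names. Cortical libraries correlated with each other at r = 0.981 to 0.983, across 20893 genes, which are not independent replicates. The medullary pair reached 0.965, and pairs between the tissues lay between 0.897 and 0.934. Every pair within a tissue differed by more than sampling noise (chi-square per degree of freedom 29.1 to 72.2), so each library counted as 1 sample. Medullary library 2 held less summed transcript of steroidogenic enzymes, catecholamine synthesis enzymes and granins than library 1. Not every chromaffin gene was lower in it. Its summed endothelial transcript was 3.04 times that of library 1. The gate was checked against Nes itself (chr3:87971078-87980451, mm10), which was at 4.59, 7.16 and 7.44 CPM in the cortical and 16.1 and 26.1 CPM in the medullary libraries. Nes was higher in GFP-negative medulla (log2 1.72, SE 0.41, adjusted p = 0.017), a call lost without cortical library 1 or medullary library 2 (adjusted p = 0.054 to 0.14). The means were 44.5 ± 8.19 CPM in GFP-positive cortex and 109 ± 60.2 CPM in GFP-positive medulla (mean ± SD, n = 3 each).

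In all, 3892 of the 20893 genes tested differed between GFP-negative cortex and medulla, 18.6% of them, with edgeR's quasi-likelihood test and a Benjamini-Hochberg adjusted p under 0.05. Of these 1683 were higher in the cortex, 8.06% of the genes tested, and 2209 higher in the medulla, 10.6%. The libraries of the tissues did not overlap for 49.5% of the genes tested, with every cortical library above for 23.4% and every medullary library above for 26.1%. The directions differed in the sizes of their differences. Among genes higher in the medulla 604 (27.3%) differed by at least 10-fold and 197 (8.92%) by at least 100-fold, with a gene at 0 counts in 1 tissue set at a floor of 3 counts. Among genes higher in the cortex 79 (4.69%) differed by at least 10-fold and 2 (0.119%) by at least 100-fold. Without the cortical library of 2.5 months, so that all 4 libraries left came from mice of 3.5 months, 2832 genes were called, 1193 of them higher in cortex. Without medullary library 2 there were 1411 calls and without cortical library 1 there were 2141. Below, a call is said to hold where the gene was also called in each of the 5 fits that left out 1 of these libraries.

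**Figure D1:**
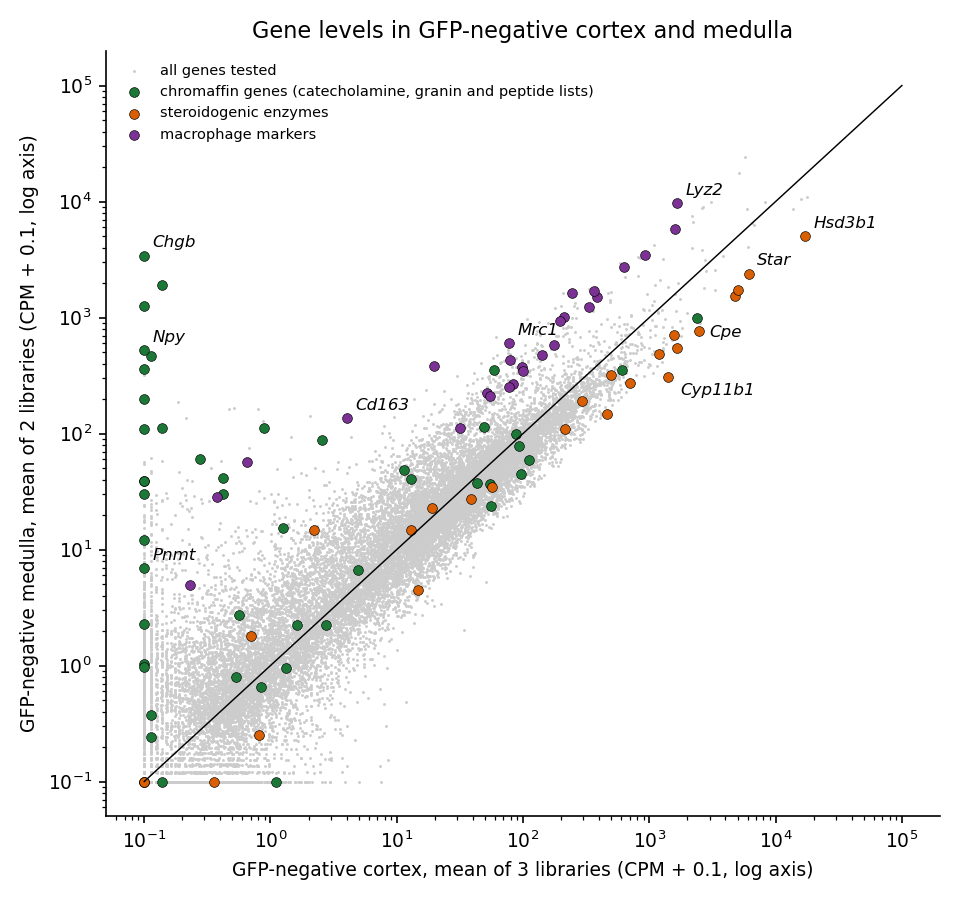
Mean level of each gene in GFP-negative cortex (horizontal, 3 libraries) and GFP-negative medulla (vertical, 2 libraries), in CPM plus 0.1 on log axes; the line marks equal levels. Chromaffin genes such as Chgb and Npy lie at the left edge, at 0 counts in the cortex, whereas most steroidogenic enzymes lie close below the line and the macrophage markers above it.

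The enzymes of adrenaline synthesis were present in medulla and at or near 0 in cortex, and all 4 were called. Th, tyrosine hydroxylase, the rate-limiting step (chr7:142892752-142931128, minus strand, mm10), was at 0.0373, 0 and 0 CPM in the cortical and 651 and 273 CPM in the medullary libraries. A single count in 3 cortical libraries stood against 24544 counts in the medullary pair, a ratio of 37487-fold (95% counting interval 6728 to 1480722), with adjusted p = 0.00038. Ddc, the decarboxylase that makes dopamine, was at 1.53, 0.441 and 0.394 CPM against 118 and 107 CPM, 142-fold higher in medulla. Dbh, which turns dopamine into noradrenaline, was at 0 CPM in all 3 against 408 and 312 CPM, at least 9539-fold higher. These 3 calls held. Pnmt, which methylates noradrenaline to adrenaline, was at 0 CPM in all 3 against 6.32 and 7.23 CPM, below the other enzymes in both medullary libraries. Per kilobase of exon the mean medullary level of Th was 195 CPM and that of Pnmt 5.87 CPM. The call of Pnmt (adjusted p = 0.042) was lost in each of the 5 fits without 1 library (adjusted p = 0.082 to 0.14).

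The genes that load, supply and break down catecholamines divided by role. Both vesicular monoamine transporters were higher in medulla. Slc18a1 was at 0, 0 and 0.118 CPM in the cortical and 131 and 90.3 CPM in the medullary libraries, and Slc18a2 at 3.66, 3.23 and 0.512 CPM against 98.2 and 77.6 CPM (log2 5.15, SE 0.64, adjusted p = 0.001). Among cofactor genes, Cyb561, the granule membrane protein that regenerates ascorbate, was at 64.7, 55.8 and 56.9 CPM against 438 and 271 CPM. Gch1, the first enzyme of tetrahydrobiopterin synthesis, was at 5.97, 18.7 and 8.98 CPM against 45.7 and 51.9 CPM, and Pcbd1, which recycles that cofactor, at 15, 13.4 and 10.3 CPM against 41.4 and 38.8 CPM. All of these were higher in medulla, and these 5 calls held. Slc6a2, the noradrenaline reuptake transporter, was at 0 CPM in all 3 against 0.11 and 1.75 CPM, so that medullary library 2 carried nearly all of its counts, and its call was lost without cortical library 1, cortical library 2, cortical library 3 or medullary library 2 (adjusted p = 0.066 to 0.22). Maob, a monoamine oxidase that breaks down amines, lay on the other side at 71.1, 31.4 and 65.7 CPM against 23.8 and 23.1 CPM. It was called higher in cortex, a call lost without cortical library 1, cortical library 3, medullary library 1 or medullary library 2 (adjusted p = 0.073 to 0.15). In the whole list 11 of 18 genes were higher in medulla, beside 10.6% of all genes tested, and 2 in cortex, beside 8.06%. The median log2 difference of the list, cortex minus medulla, was -2.31, against -0.02 for all genes tested.

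Granins are acidic proteins that condense catecholamines and calcium in granules. Chgb, Chga and Scg2 were abundant in medulla and had at most 3 counts each in the cortical libraries together. Chgb, chromogranin B (chr2:132781278-132795079), was at 0 CPM in all 3 cortical and 4159.6 and 2657 CPM in the medullary libraries, at least 90224-fold higher in medulla over the floor of 3 counts. Chga, chromogranin A, was at 0, 0 and 0.118 CPM against 2274 and 1548 CPM, 3 counts in all against 100353. Scg2, secretogranin II, was at 0 CPM in all 3 against 1636 and 881 CPM. None of the 3 overlapped between the tissues, and medullary library 1 was the higher of the pair for each. Scg3 was at 0 CPM in all 3 against 50.4 and 27.8 CPM and Vgf, a granin of neurons, at 0 CPM in all 3 against 1.35 and 0.406 CPM. These 5 calls held. Chgb ranked 37, Chga 46 and Scg2 115 among all genes of GFP-negative medulla by CPM per kilobase of exon.

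The start sites of 4 of these genes are shown because they share the cyclic AMP response element, the site of CREB proteins. Sequences are RefSeq's, from build GRCm38.p6 (mm10), 250 bases before to 50 after the start, written 5′ to 3′ on the gene's strand. Capitals mark TGACGTCA or, in Chga, its shorter form TGACGT. The regions are chr7:142899946-142900245 (minus strand), chr12:102554691-102554990 (plus), chr2:132781392-132781691 (plus) and chr1:79439977-79440276 (minus).
Th: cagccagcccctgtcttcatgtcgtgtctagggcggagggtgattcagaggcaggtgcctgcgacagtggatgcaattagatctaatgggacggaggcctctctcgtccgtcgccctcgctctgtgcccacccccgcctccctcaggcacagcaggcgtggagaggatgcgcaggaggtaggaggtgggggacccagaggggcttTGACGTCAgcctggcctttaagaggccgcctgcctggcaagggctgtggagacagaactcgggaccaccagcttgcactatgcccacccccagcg
Chga: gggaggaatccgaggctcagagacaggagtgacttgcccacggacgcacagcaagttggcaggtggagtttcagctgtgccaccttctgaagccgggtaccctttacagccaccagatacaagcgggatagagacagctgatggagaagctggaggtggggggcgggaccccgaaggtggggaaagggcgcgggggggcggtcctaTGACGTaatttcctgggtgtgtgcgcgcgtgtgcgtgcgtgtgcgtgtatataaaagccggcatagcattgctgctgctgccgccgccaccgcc
Chgb: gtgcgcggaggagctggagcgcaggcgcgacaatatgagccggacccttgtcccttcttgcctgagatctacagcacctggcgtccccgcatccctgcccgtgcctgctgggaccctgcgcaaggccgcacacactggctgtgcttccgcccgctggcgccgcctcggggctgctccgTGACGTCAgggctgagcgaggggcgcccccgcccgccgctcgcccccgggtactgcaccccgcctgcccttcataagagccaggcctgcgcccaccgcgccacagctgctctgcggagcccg
Scg2: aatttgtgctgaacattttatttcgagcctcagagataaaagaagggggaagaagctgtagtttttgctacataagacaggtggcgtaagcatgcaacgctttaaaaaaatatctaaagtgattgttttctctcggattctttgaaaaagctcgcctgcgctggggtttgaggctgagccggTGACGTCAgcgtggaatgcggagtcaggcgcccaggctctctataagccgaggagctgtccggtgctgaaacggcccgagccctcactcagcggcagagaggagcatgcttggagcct
The element began 45 bases before the start in Th, 44 in Chga, 72 in Chgb and 68 in Scg2. Both strands were searched, and TGACGT lies inside TGACGTCA. List shares are over genes with a promoter sequence, counted once if any of their entries held the form. The share of all promoters is over single entries, so the measures differ for genes with several entries. The short form was in 6 of 14 genes for the granin and prohormone list (42.9%) and 2 of 12 for the catecholamine list (16.7%). The 6 include Scg5 and Furin, which were not called, and the site in Furin began 29 bases after the start. The short form was in 4 of 19 for the peptide list (21.1%), 3 of 18 for the sympathoadrenal factors (16.7%) and 2 of 22 for exocytosis (9.09%). It was in 0 of 17 steroidogenic genes and 3 of 21 for the ACTH signalling and regulator list (14.3%). It was in 2 of 20 for cholesterol synthesis (10.0%) and in 7.51% of the 32851 promoters in the table. The long form was in 3 of the 14 (21.4%), in 2 of the 12 (16.7%) and in 1.79% of all promoters. It was in 2 of 19 for peptides (10.5%), 1 of 22 for exocytosis (4.55%) and 0 of 18 for the sympathoadrenal factors. For steroidogenic genes it was in 0 of 17, for ACTH signalling in 1 of 21 (4.76%) and for cholesterol synthesis in 0 of 20. Dbh, Npy and Gal, which were also at 0 in all cortical libraries, held neither form in this window. A match is a description of the letters and not a bound site.

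Prohormone processing genes lay on both sides. Cpe, carboxypeptidase E, which trims peptide ends, was at 2244, 2608 and 2301 CPM in the cortical and 1027 and 942 CPM in the medullary libraries. Every cortical library was above, by a factor of 2.42-fold in the means (log2 1.28, SE 0.20, adjusted p = 0.0032), and this call held. Pam, which amidates peptides, was also higher in cortex (119, 109 and 103 CPM against 68.7 and 48.5 CPM), a call lost without medullary library 2 (adjusted p = 0.12). Pcsk1, prohormone convertase 1, was higher in medulla (2.28, 0.955 and 0.236 CPM against 21.4 and 8.94 CPM), a call lost without cortical library 2, cortical library 3, medullary library 1 or medullary library 2 (adjusted p = 0.071 to 0.14). The convertase inhibitor Pcsk1n was at 0.187, 0.257 and 0.0788 CPM against 67.7 and 52.7 CPM. Of granule proteins, Resp18 was at 0 CPM in all 3 against 130.5 and 87.9 CPM, Ptprn at 0.224, 0.734 and 0 CPM against 31.7 and 28.4 CPM and Syt1, a calcium sensor of release, at 0 CPM in all 3 against 35.5 and 24 CPM. The calls of Pcsk1n and these 3 held. Scg5, the chaperone of convertase 2, was at 61, 40.1 and 47 CPM against 118 and 110.5 CPM and not called (adjusted p = 0.061). In sum 10 of 16 members were higher in medulla and 2 in cortex, beside 10.6% and 8.06% of all genes tested. The median log2 difference was -6.97, or -5.53 with the 6 genes at 0 in cortex set at their bound.

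Peptide hormones called in medulla numbered 5 of 15 tested, beside 10.6% of all genes, with 0 in cortex. Npy, neuropeptide Y, was at 0 CPM in all 3 cortical and 740.1 and 311 CPM in the medullary libraries, at least 13911-fold higher in medulla. Gal, galanin, was at 0 CPM in all 3 against 223 and 176 CPM. Penk, proenkephalin, was at 0 CPM in all 3 against 18.4 and 5.57 CPM and Edn3, endothelin 3, at 0 CPM in all 3 against 58.6 and 18.6 CPM. Medullary library 1 was above library 2 for each of these 4. Adm, the vasodilator adrenomedullin, was at 0.336, 0 and 0.63 CPM against 38.5 and 43.5 CPM, with library 2 the higher. These 5 calls held. The other 18 listed precursors were not called, and 8 of them, among them Vip, Tac1 and Crh, had too few counts for a test. The median log2 difference was -3.04, or -4.93 with 6 tested genes at their bound and the 3 at or under the floor in both tissues left out.

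**Figure D2:**
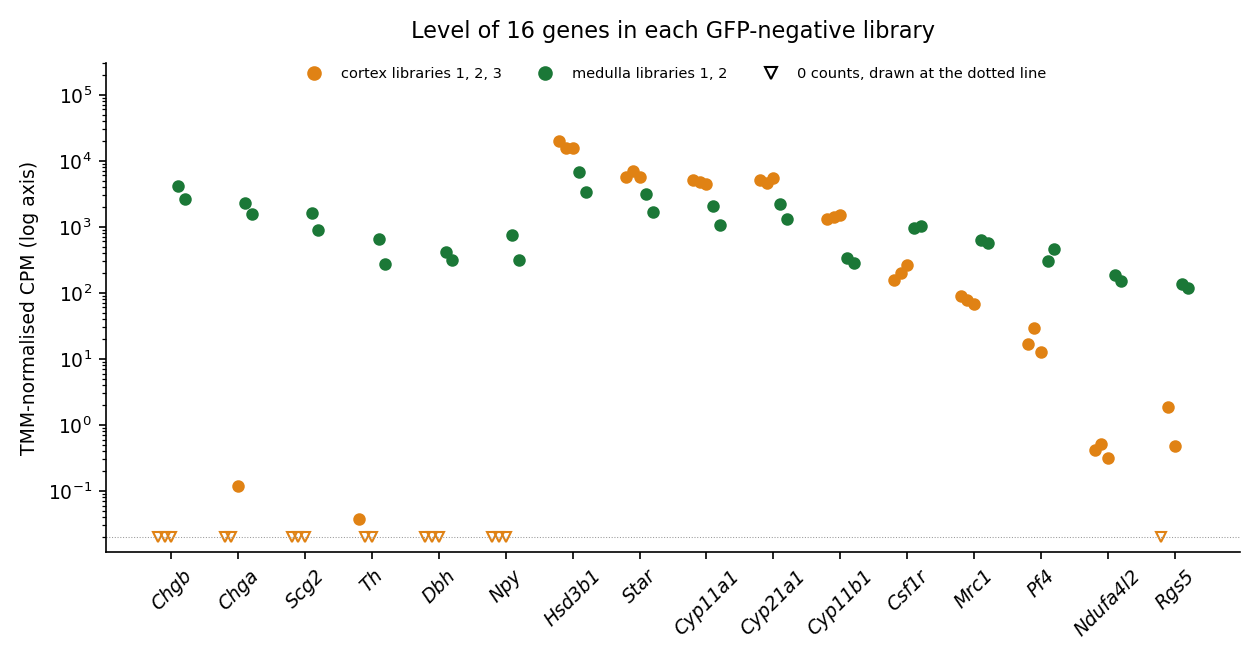
Level of 16 genes in each of the 5 GFP-negative libraries, in TMM-normalised CPM on a log axis; cortical libraries 1 to 3 are orange, medullary libraries 1 and 2 green, and open triangles stand for 0 counts. The 6 chromaffin genes at the left are at or next to 0 in each cortical library, and the 5 steroidogenic genes remain between 284 and 6736 CPM in the medullary libraries.

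Part of the machinery for granule release followed. In the exocytosis list 13 of 32 genes were higher in medulla and 1 in cortex, beside 10.6% and 8.06% of all genes tested. The median log2 difference of the list was -1.98. Snap25, the plasma membrane SNARE, was at 0.411, 0.661 and 0.0394 CPM in the cortical and 195 and 132 CPM in the medullary libraries (log2 8.75, SE 1.56, adjusted p = 0.0051). Syt4, a relative of Syt1, was at 0.0747, 0 and 0.63 CPM against 66.6 and 34 CPM. Cadps, which primes granules, was at 0.149, 0.0734 and 0 CPM against 16.8 and 22.6 CPM. Rab3b was at 0.0373, 0 and 0 CPM against 57.4 and 34 CPM and Rab3c, another small GTPase of vesicles, at 0, 0 and 0.0394 CPM against 53.5 and 42.1 CPM. Each of these was near 0 in cortex, and the calls held. Syn2, a synapsin, was at 0.299, 0 and 0.118 CPM against 46.5 and 30.9 CPM and Syp, synaptophysin, at 0.709, 0.367 and 0.906 CPM against 15.3 and 14.8 CPM, and both held. The vesicle SNARE Vamp2 (58, 47.2 and 33.6 CPM against 51.2 and 62.1 CPM) and Rab3a (75.5, 78.2 and 80.8 CPM against 64.6 and 33.6 CPM) were present in both tissues and not called (adjusted p = 0.46 and 0.10). Rims2, an active zone scaffold, was the member called higher in cortex, at 164, 121 and 117 CPM against 53.2 and 33.2 CPM. Its call was lost without medullary library 2 (adjusted p = 0.086).

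Of 24 transcription factors of sympathoadrenal cells tested, 13 were higher in medulla, 1, Rora, was higher in cortex and 10 were not called. Among all genes tested 10.6% were higher in medulla and 8.06% in cortex. The median log2 difference of the list was -7.05. Phox2a, a homeobox factor of noradrenergic cells, was at 0, 0 and 0.0788 CPM in the cortical and 9.24 and 10.1 CPM in the medullary libraries. Hand2 was at 0.0747, 0 and 0 CPM against 32.6 and 17.5 CPM and Gata3 at 0.187, 0.11 and 0.118 CPM against 18 and 20.3 CPM. No cortical library was above 2.80 CPM for any of the 13 genes higher in medulla. The whole list summed to 194, 214 and 185 CPM in the cortical and 414 and 377 CPM in the medullary libraries. Tbx20 was at 0, 0.0734 and 0.0788 CPM against 30.6 and 25.1 CPM and Arnt2, the one of the 13 with the most cortical signal, at 1.08, 1.1 and 2.8 CPM against 54.8 and 37 CPM. Of the 13 calls 12 held, all but that of Gata2. Isl1, a factor of sympathetic neurons, was at 0 CPM in all 3 against 0 and 6.21 CPM, in medullary library 2 alone, and was not called (adjusted p = 0.13). Hand2os1, a non-coding RNA that starts beside Hand2 on the other strand, was at 0, 0.0367 and 0 CPM against 71.8 and 51 CPM (adjusted p = 8.6e-05). The library method marks no strand, so reads that run past either gene's annotated start cannot be assigned by direction.

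Channels and receptors of excitation formed a medullary and a cortical set. The medulla held nicotinic acetylcholine receptor subunits, through which the splanchnic nerve acts: Chrna3 was at 0 CPM in all 3 cortical and 64.9 and 44 CPM in the medullary libraries and its partner Chrnb4 at 0, 0 and 0.0394 CPM against 14.4 and 8.57 CPM. The sodium channel Scn3a was at 0 CPM in all 3 against 13.7 and 8.94 CPM and the N-type calcium channel Cacna1b at 0.0373, 0 and 0 CPM against 3.62 and 6.25 CPM. The glutamate receptor subunit Gria2 was at 0, 0.0367 and 0.0788 CPM against 29.1 and 23.6 CPM. Each of these 5 was higher in medulla, and the calls held. The cortex held Kcnk3, the background potassium channel TASK-1 of steroid cells, at 1145, 1084 and 949.6 CPM against 549 and 418 CPM (log2 1.13, SE 0.30, adjusted p = 0.026). Kcnn2, a small-conductance channel, was at 304, 303 and 270.1 CPM against 124 and 74.5 CPM, and the L-type calcium channel Cacna1c at 76, 71.4 and 84.5 CPM against 33.7 and 31.6 CPM. Kcnd3, a transient potassium channel, was at 1.83, 2.28 and 2.95 CPM against 0 and 0.0406 CPM, so that a single count remained in medulla. The calls of Kcnn2 and Kcnd3 held, that of Kcnk3 was lost without cortical library 1, cortical library 2 or medullary library 2 (adjusted p = 0.061 to 0.18), and that of Cacna1c was lost without cortical library 1, medullary library 1 or medullary library 2 (adjusted p = 0.057 to 0.12). In the list 18 of 46 genes were higher in medulla and 7 in cortex, beside 10.6% and 8.06% of all genes tested. The cortical count was 2 without medullary library 2, 2 without cortical library 1 and 3 without cortical library 2.

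Neuronal cytoskeleton and RNA-binding genes were higher in medulla for 13 of 30 tested and in cortex for 1 (median log2 -1.64). Among all genes tested these shares were 10.6% and 8.06%. Elavl4, an RNA-binding protein of neurons, was at 0, 0.0734 and 0 CPM in the cortical and 21.3 and 22.3 CPM in the medullary libraries (adjusted p = 0.00015). Stmn2, a microtubule regulator of growth cones, was at 2.02, 0 and 0.118 CPM against 34.4 and 29.5 CPM and its relative Stmn3 at 0, 0.551 and 0 CPM against 30.2 and 24.4 CPM. Uchl1, a ubiquitin hydrolase of neurons, was at 18, 16.5 and 13.8 CPM against 47.6 and 47.6 CPM. These 4 calls held, and Uchl1 was the one with clear cortical signal. Tubb3, a tubulin of neurons, was at 14.2, 14.2 and 9.1 CPM against 13.1 and 17.1 CPM, overlapping between the tissues. Prph, peripherin, a filament of peripheral neurons, was at 0 CPM in all 3 against 0 and 9.87 CPM, like Isl1 in medullary library 2 alone. Among 12 neurotrophic receptors and adhesion molecules 4 were higher in medulla, beside 10.6% of all genes tested. L1cam was at 0, 0.0367 and 0 CPM against 16.3 and 16.6 CPM and Ncam1 at 4.52, 6.57 and 7.68 CPM against 57.7 and 41.5 CPM. Ngfr, the low-affinity neurotrophin receptor, was at 0, 0.0367 and 0 CPM against 3.76 and 3.94 CPM and Ret, the receptor of glial cell line-derived factors, at 0, 0 and 0.0394 CPM against 2.85 and 0.853 CPM. The call of Ret was lost in each of the 5 fits without 1 library (adjusted p = 0.08 to 0.12), and the other 3 held.

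Steroidogenic enzymes were higher in cortex, but they were abundant in the cells labelled medulla as well. Of 24 tested, 12 were higher in cortex, beside 8.06% of all genes, and 0 in medulla, with a median log2 difference of 1.32. Hsd3b1, which converts pregnenolone to progesterone (chr3:98852194-98859794, minus strand), was at 20100.1, 15812 and 15567 CPM in the cortical and 6736 and 3309 CPM in the medullary libraries (log2 1.77, SE 0.27, adjusted p = 0.0027). By CPM per kilobase it ranked 4 among all genes of the cortex and 21 among those of the medulla. Star, which carries cholesterol into mitochondria, was at 5693, 6892 and 5752 CPM against 3138 and 1650.3 CPM. Cyp11a1, which cleaves the cholesterol side chain, was at 5164, 4806 and 4384 CPM against 2032 and 1048 CPM, and Cyp21a1, the 21-hydroxylase, at 5052, 4659 and 5469.5 CPM against 2187 and 1297 CPM. Each cortical library was above each medullary one for these 4 genes, and the ratios of means were 2.55-fold for Star, 2.9-fold for Cyp21a1, 3.11-fold for Cyp11a1 and 3.42-fold for Hsd3b1. Bulk libraries of mixed cells do not tell fewer cells of a type from less RNA of a gene per cell. Hsd3b1 and Hsd3b6 are related genes, and whether some reads were assigned to the wrong one of them was not tested.

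The last step of corticosterone synthesis had the largest difference among the 12 called enzymes. Cyp11b1, 11-beta-hydroxylase of the zona fasciculata (chr15:74834125-74841643), was at 1313, 1384 and 1519 CPM in the cortical and 335 and 284 CPM in the medullary libraries. It was 4.54-fold higher in cortex (log2 2.18, SE 0.21, adjusted p = 0.00038), and the call held. Its neighbour Cyp11b2, aldosterone synthase of the zona glomerulosa, was at 1395, 958 and 1197 CPM against 568 and 399 CPM and was not called (adjusted p = 0.12), although its libraries did not overlap. Srd5a1, a steroid 5-alpha-reductase, was at 14.6, 13 and 16.3 CPM against 2.89 and 5.81 CPM, and its call held. Fdxr, the reductase that feeds electrons to mitochondrial P450 enzymes, was at 682, 659.6 and 753 CPM against 305 and 235 CPM and its partner Fdx1 at 1533, 1600.3 and 1543 CPM against 849 and 578 CPM. Akr1b7, an aldose reductase of steroid cells, was at 3056, 2049 and 2276 CPM against 1061 and 463 CPM and not called (adjusted p = 0.12). Cyp17a1, which mouse adrenals are known to lack, was at 0.448, 0 and 0.315 CPM in cortex and at 0 in medulla. Without medullary library 2 only 3 of the 12 enzymes were called, and Star, Cyp11a1, Cyp21a1, Fdx1 and Fdxr had adjusted p = 0.059 to 0.24.

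The medullary libraries differed in how much of these transcripts they held. The 12 called enzymes stood at a median of 0.431 of the cortical mean in medullary library 1 (range 0.197 to 0.692) and at 0.263 in library 2 (0.193 to 0.523). Summed over the list, steroidogenic transcripts were at 47349, 42084 and 41596 CPM in the cortical and 18984 and 10349 CPM in the medullary libraries. Summed transcripts of catecholamine synthesis enzymes and of granins were also fewer in library 2, although Pnmt was not. The 4 synthesis enzymes summed to 1.57, 0.441 and 0.394 CPM in the cortical and 1184 and 699 CPM in the medullary libraries. The 7 granins summed to 61.2, 40.4 and 47.2 CPM against 8306 and 5277.5 CPM. The whole lists also hold genes expressed in cortex. Breakdown genes summed to 831, 716.5 and 746 CPM against 535 and 307 CPM. Prohormone processing enzymes summed to 2420, 2764 and 2446 CPM against 1158 and 1046 CPM.

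**Figure D3:**
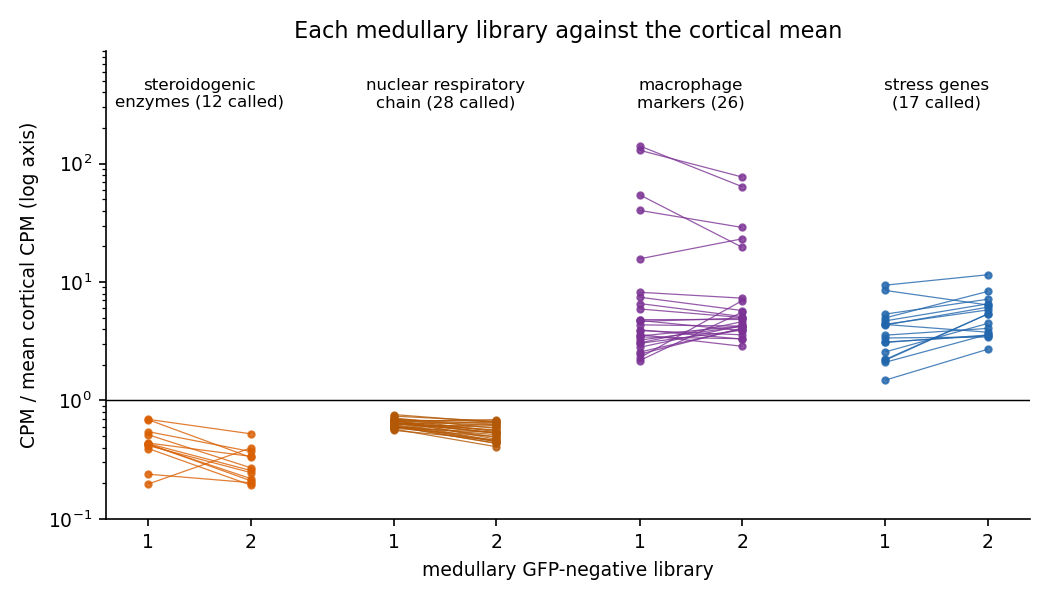
Level of each gene in medullary libraries 1 and 2 divided by its mean in the 3 cortical libraries (log axis), with a line joining the values of a gene. The 12 called steroidogenic and 28 called respiratory chain genes lie below 1 in both libraries, while the 26 macrophage markers and the 17 called stress genes lie above 1 in both.

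Of 29 genes for ACTH signalling and transcriptional control of steroid cells, 4 were higher in cortex and 2 in medulla, a share near the 18.6% called either way among all genes tested, with a median log2 difference of 0.43. Mc2r, the ACTH receptor, was at 528, 501 and 446 CPM in the cortical and 249 and 146 CPM in the medullary libraries (log2 1.32, SE 0.26, adjusted p = 0.0083). Prkar2b, a regulatory subunit of protein kinase A, was at 139, 129.5 and 120.1 CPM against 69.5 and 33.2 CPM, and the factor Gata6 at 29.7, 53.8 and 42.3 CPM against 22.1 and 9.26 CPM. The orphan receptor Nr2f1 was at 22.5, 24.2 and 15.1 CPM against 8.55 and 9.02 CPM. Each cortical library was above each medullary one, but none of these 4 was called without medullary library 2 (adjusted p = 0.065 to 0.26). The cortical count of 4 was 0 there, 2 without cortical library 1 or 3 and 7 without medullary library 1. Nr5a1, the steroidogenic factor SF-1, was at 252, 361 and 242 CPM against 202 and 78.7 CPM and missed the threshold (adjusted p = 0.095). Gnas, the gene of the stimulatory G protein, was higher in medulla (9.56, 11.1 and 11.1 CPM against 28.2 and 26.4 CPM), and its call held. Counts are per gene, so the transcripts of Gnas were not told apart. The coregulator Cited2 was higher there too (20.9, 30.7 and 18.3 CPM against 61.9 and 97.3 CPM), a call lost without medullary library 2 (adjusted p = 0.11).

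Of 31 zona glomerulosa genes tested, 8 were higher in cortex and 4 in medulla, beside 8.06% and 10.6% of all genes tested. The medullary share was near that of all genes. Agtr1a, an angiotensin receptor, was at 1481, 1141 and 1127 CPM in the cortical and 535 and 294 CPM in the medullary libraries (log2 1.59, SE 0.28, adjusted p = 0.0047). The Wnt antagonist Nkd1 was at 107, 154 and 97.9 CPM against 49 and 28 CPM (log2 1.64, SE 0.28, adjusted p = 0.0043), and both calls held. Wnt4, the Wnt ligand of the glomerulosa, was at 283, 283 and 192 CPM against 116 and 81.6 CPM, and the Wnt pathway factor Lef1 at 42, 48.5 and 24.6 CPM against 17.4 and 16.2 CPM. Both were called, but of the 5 fits without 1 library only that without cortical library 3 called them (adjusted p in the others up to 0.25 and 0.13). Lgr5, the R-spondin receptor, was at 1.94, 4.22 and 3.66 CPM against 62 and 37 CPM, 15.1-fold higher in medulla, and held. Rspo1, an R-spondin, was at 0 CPM in all 3 against 1.46 and 0.0406 CPM, a call lost without cortical library 1, cortical library 2, cortical library 3 or medullary library 1 (adjusted p = 0.091 to 0.29). Agtr2, the second angiotensin receptor type, was at 49, 48.5 and 39.3 CPM against 106 and 106 CPM and not called (adjusted p = 0.092). The cortical count of 8 was 2 without medullary library 2, without cortical library 1 and without cortical library 2. The medullary count of 4 was 2 without cortical library 2 or 3.

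Cholesterol storage and export genes lay on different sides. Soat1, which esterifies cholesterol for storage, was at 812, 743 and 772 CPM in the cortical and 494 and 318 CPM in the medullary libraries, higher in cortex (log2 0.94, SE 0.18, adjusted p = 0.007), and held. Scarb1, the HDL receptor, was at 791, 810.3 and 835 CPM against 501 and 282 CPM and not called (adjusted p = 0.10). On the medullary side Npc2, which moves cholesterol out of lysosomes, was at 441, 421 and 514 CPM against 1043 and 908 CPM. Lrp1, a lipoprotein receptor, was 2.22-fold higher (log2 1.15, SE 0.13, adjusted p = 0.00076) without overlap, and both calls held. The exporter Abca1 was at 33, 43.3 and 43.5 CPM against 94.6 and 82 CPM, a call lost without cortical library 1, medullary library 1 or medullary library 2 (adjusted p = 0.057 to 0.071). Apoe, a lipid carrier of macrophages and adrenal cells, was at 4896, 4152 and 8127 CPM against 23899 and 24816 CPM (log2 2.09, SE 0.51, adjusted p = 0.019). Apoe ranked 2 among all genes of the medulla by CPM per kilobase, and its call was lost without cortical library 1, cortical library 2 or medullary library 2 (adjusted p = 0.059 to 0.085). Across the list 10 of 24 genes were higher in medulla and 2 in cortex, beside 10.6% and 8.06% of all genes tested. The medullary count was 4 without cortical library 1 and 5 without any one of cortical library 2, medullary library 1 and medullary library 2, and the cortical count was 4 without medullary library 1 and 1 without another library. Macrophage markers moved with these genes, 26 of 26 being above in each medullary library, and their part was not tested. In cholesterol synthesis 3 of 25 genes were higher in cortex and 0 in medulla, beside 8.06% and 10.6% of all genes tested. Msmo1, a sterol oxidase, was at 315, 236 and 270.1 CPM against 147 and 85.4 CPM, and its call held. Mvk, mevalonate kinase, was at 23.4, 23.3 and 29.7 CPM against 10.9 and 8.41 CPM, a call lost without medullary library 2 (adjusted p = 0.087), and Idi1, an isomerase, at 4.67, 4.52 and 5.04 CPM against 1.94 and 2.72 CPM, a call lost in each of the 5 fits without 1 library (adjusted p = 0.072 to 0.17).

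The nuclear genes of the respiratory chain were higher in cortex for 28 of 30, beside 8.06% of all genes, and 0 in medulla. Their ratios of means ran from 1.42 to 2.04. Cyc1, cytochrome c1 of complex III, was at 358, 299 and 312 CPM in the cortical and 195 and 141 CPM in the medullary libraries (log2 0.94, SE 0.16, adjusted p = 0.0039) and Atp5b of the ATP synthase at 2109, 1809.8 and 2084 CPM against 1294 and 912 CPM. The call of Atp5b was lost without medullary library 2 (adjusted p = 0.07). Relative to the cortical mean the 28 genes stood at 0.559 to 0.760 in medullary library 1 and at 0.407 to 0.689 in library 2. The median log2 difference of the list was 0.74. The count was 13 without medullary library 2, 20 without cortical library 1 and 26 to 29 without another library. Of the 13 genes encoded by mitochondria 1 was called, mt-Co1 (17652, 16900.4 and 18807 CPM against 10388 and 11371 CPM), a call lost in each of the 5 fits without 1 library (adjusted p = 0.064 to 0.12). The mitochondrial chromosome took 7.03 to 7.31% of counts in cortex and 4.08 and 5.14% in medulla. Cox8b, a heart and muscle form of a complex IV subunit, lay on the other side at 0 CPM in all 3 against 324 and 313 CPM, at least 8433-fold higher in medulla, although its call (adjusted p = 0.022) was lost without cortical library 1, cortical library 2, cortical library 3 or medullary library 2 (adjusted p = 0.055 to 0.067).

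Defence against peroxides and aldehydes was divided. Of 29 genes, 13 were higher in cortex and 6 in medulla, beside 8.06% and 10.6% of all genes tested. The mitochondrial peroxiredoxin Prdx3 was at 1559.7, 1592 and 1431 CPM in the cortical and 745 and 400.4 CPM in the medullary libraries (log2 1.41, SE 0.23, adjusted p = 0.0036), and Txn2, the thioredoxin that serves it, at 1124, 893 and 958 CPM against 499 and 304 CPM. Nnt, which supplies mitochondrial NADPH, was at 327, 378 and 373 CPM against 186 and 159 CPM and the aldehyde dehydrogenase Aldh2 at 275, 260.1 and 266 CPM against 141 and 135 CPM. These 4 calls in cortex held. Gpx3, the secreted glutathione peroxidase, was higher in medulla at 23.5, 25.2 and 21.8 CPM against 241 and 224 CPM (log2 3.30, SE 0.54, adjusted p = 0.0035), and Hmox1, heme oxygenase 1, at 118, 166 and 121 CPM against 301 and 464 CPM. Both held. Gpx1, the cytosolic peroxidase, was higher in medulla at 742, 678 and 748 CPM against 1047 and 1061 CPM, a call lost without cortical library 2 or medullary library 2 (adjusted p = 0.065 to 0.088). The cortical count was 6 and the medullary count 2 without medullary library 2.

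Macrophage markers were higher in each medullary library than in each cortical library for 26 of 26 genes, beside 26.1% of all genes, and 19 of them were called. Csf1r, the receptor that sustains macrophages, was at 157, 202 and 268 CPM in the cortical and 974 and 1039 CPM in the medullary libraries (log2 2.27, SE 0.32, adjusted p = 0.0018). Adgre1, the F4/80 antigen, was at 64.5, 83 and 87.8 CPM against 465 and 394 CPM and Lyz2, lysozyme, at 1625, 1470.3 and 1872 CPM against 10908 and 8470.1 CPM. For 20 of the 26 genes the ratio of means lay between 3 and 7. Of the other 6, Mrc1, the mannose receptor, was at 88.8, 77.4 and 67.5 CPM against 639 and 570.1 CPM (log2 2.96, SE 0.48, adjusted p = 0.0033). Pf4, a chemokine, was at 16.8, 29.2 and 12.8 CPM against 308 and 454 CPM (log2 4.28, SE 0.32, adjusted p = 0.00015) and Cd163, the haemoglobin scavenger receptor, at 8.06, 3.56 and 0.118 CPM against 158 and 113 CPM. F13a1 was at 0, 1.65 and 0 CPM against 77.8 and 35.3 CPM and Lyve1 at 0, 0 and 0.827 CPM against 35.8 and 21.3 CPM, both at 0 in 2 of the 3 cortical libraries. Timd4, the sixth, was at 0.0747, 0 and 0.315 CPM against 7.09 and 2.56 CPM and not called (adjusted p = 0.05). Cortical library 3, from the younger mice, was the highest cortical library for 21 of the 26 genes. The summed list was at 6306, 6777 and 9513 CPM in the cortical and 34724 and 33504 CPM in the medullary libraries, and the median log2 difference was -2.11. The count of 19 was 7 without medullary library 2, 10 without cortical library 1 or cortical library 2, 13 without cortical library 3 and 11 without medullary library 1. The calls of Csf1r, Adgre1, Mertk, Mrc1, Cd14 and Pf4 held. Of the others named, that of Lyz2 was lost in each of the 5 fits without 1 library (adjusted p = 0.086 to 0.11) and that of Cd163 was lost without cortical library 2, medullary library 1 or medullary library 2 (adjusted p = 0.08 to 0.087). With the 5 GFP-negative libraries fitted alone all 26 were called. With age as a covariate 11 were called, and with replicate number as a block 11.

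All 12 genes of class II antigen presentation were likewise higher in both medullary libraries than in any cortical one, beside 26.1% of all genes. Of the 12, 4 were called higher in medulla, beside 10.6% of all genes. Cd74, the invariant chain, was at 4801, 4629 and 5902 CPM in the cortical and 18526 and 16801 CPM in the medullary libraries. It ranked first among all genes of the medulla by CPM per kilobase and was not called (adjusted p = 0.13). H2-Aa, a class II chain, was at 2239, 2411 and 3396 CPM against 8884 and 8991 CPM (adjusted p = 0.099). Both were called with the 5 libraries fitted alone, where 10 of 12 passed. With age as a covariate 4 of the 12 passed, and with replicate number as a block 3. Ctsh, cathepsin H, was at 361, 345 and 429 CPM against 793 and 733 CPM and Ifi30, a lysosomal reductase, at 60.9, 63.7 and 83.7 CPM against 184 and 214 CPM, and these calls held. The count of 4 was 2 without any one of cortical library 1, cortical library 2, medullary library 1 and medullary library 2. Of 20 lymphocyte and granulocyte markers 14 had too few counts for a test, and the list summed to 23.7, 16.9 and 12.3 CPM in the cortical and 39 and 61.2 CPM in the medullary libraries. One was called, Cd3d (0 CPM in all 3 against 0.84 and 0.691 CPM), a call lost in each of the 5 fits without 1 library (adjusted p = 0.071 to 0.14).

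Vessel markers were uneven between the medullary libraries. The 28 endothelial markers summed to 209, 422 and 190.4 CPM in the cortical and 554 and 1683 CPM in the medullary libraries. Of these 8 were called, all higher in medulla, beside 10.6% of all genes tested. The median log2 difference of the list was -1.92. Plvap, the diaphragm protein of fenestrated capillaries, was at 7.54, 43.7 and 7.25 CPM against 60.9 and 295 CPM and Emcn, endomucin, at 13.1, 32.9 and 21.6 CPM against 64.2 and 258 CPM. Both were over 4 times as high in medullary library 2 as in library 1. Eng, endoglin, was at 9.33, 23.1 and 9.77 CPM against 64.9 and 86.8 CPM (log2 2.43, SE 0.45, adjusted p = 0.0063) and was the member whose call held. The count of 8 was 1 without medullary library 2, 4 without cortical library 3, 5 without cortical library 1 and 11 without cortical library 2 or medullary library 1. DESeq2 called 14.

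Among 16 pericyte and smooth muscle markers 3 were called, all higher in medulla. Among all genes tested 10.6% were higher in medulla and 18.6% were called either way. Every medullary library was above for 9 of the 16, beside 26.1% of all genes tested. Every cortical library was above for 2, beside 23.4%. Rgs5, a regulator of G protein signalling, was at 0, 1.84 and 0.473 CPM in the cortical and 138 and 118 CPM in the medullary libraries (log2 7.36, SE 0.91, adjusted p = 0.001). Ndufa4l2, a mitochondrial protein induced by low oxygen, was at 0.411, 0.514 and 0.315 CPM against 185 and 149.6 CPM (log2 8.64, SE 0.46, adjusted p = 6.8e-05). Both calls held, and both genes were under 2 CPM in cortex. The receptor Pdgfrb, which defines mural cells, was the third called, at 0, 0.734 and 0.0788 CPM against 2.56 and 2.4 CPM, a call lost without cortical library 1, cortical library 3, medullary library 1 or medullary library 2 (adjusted p = 0.058 to 0.13). Cspg4, a proteoglycan of pericytes, was at 0.0747, 0.257 and 0 CPM against 0 and 0.406 CPM. Pdgfrb and Cspg4 were thus under 3 CPM in all 5 libraries, also where Rgs5 and Ndufa4l2 were above 100 CPM.

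The fibroblast and capsule list summed to 194, 252 and 191 CPM in the cortical and 174 and 154 CPM in the medullary libraries, and 3 of 15 were higher in cortex and 2 in medulla, beside 8.06% and 10.6% of all genes tested. Wnt5a, a Wnt ligand, was at 16.6, 22.3 and 17.7 CPM against 3.65 and 3.53 CPM, and the collagen chain Col6a1 at 32.1, 25.9 and 28 CPM against 8.51 and 9.95 CPM, both higher in cortex. Col6a2, the partner chain of Col6a1, lay on the other side at 0 CPM in all 3 against 1.21 and 2.96 CPM. These 3 calls held, and the medullary count of 2 was 1 without cortical library 1, cortical library 3 or medullary library 1. Among 18 Schwann and satellite glia markers 9 were higher in medulla and 0 in cortex, beside 10.6% and 8.06% of all genes tested. The list's summed level overlapped between tissues, at 321, 260.5 and 234 CPM in the cortical and 267 and 269 CPM in the medullary libraries. Most of it was Pmp22, a myelin protein also made outside glia, at 309.8, 236 and 219.8 CPM against 184 and 164 CPM and not called (adjusted p = 0.30). Erbb3, the neuregulin receptor, was at 0.933, 1.21 and 0.788 CPM against 8.51 and 9.22 CPM (log2 3.17, SE 0.49, adjusted p = 0.0027), the phosphatase Ptprz1 at 0.0373, 0.0367 and 0.0788 CPM against 18.9 and 5.93 CPM and S100b at 0, 0.0367 and 0 CPM against 1.31 and 2.07 CPM, and all 3 held. The defining glial factor Sox10 was at 0, 0.331 and 0 CPM in cortex and at 0 of 53670122 counts in the medullary pair, where up to 3 counts cannot be told from 0.

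**Figure D4:**
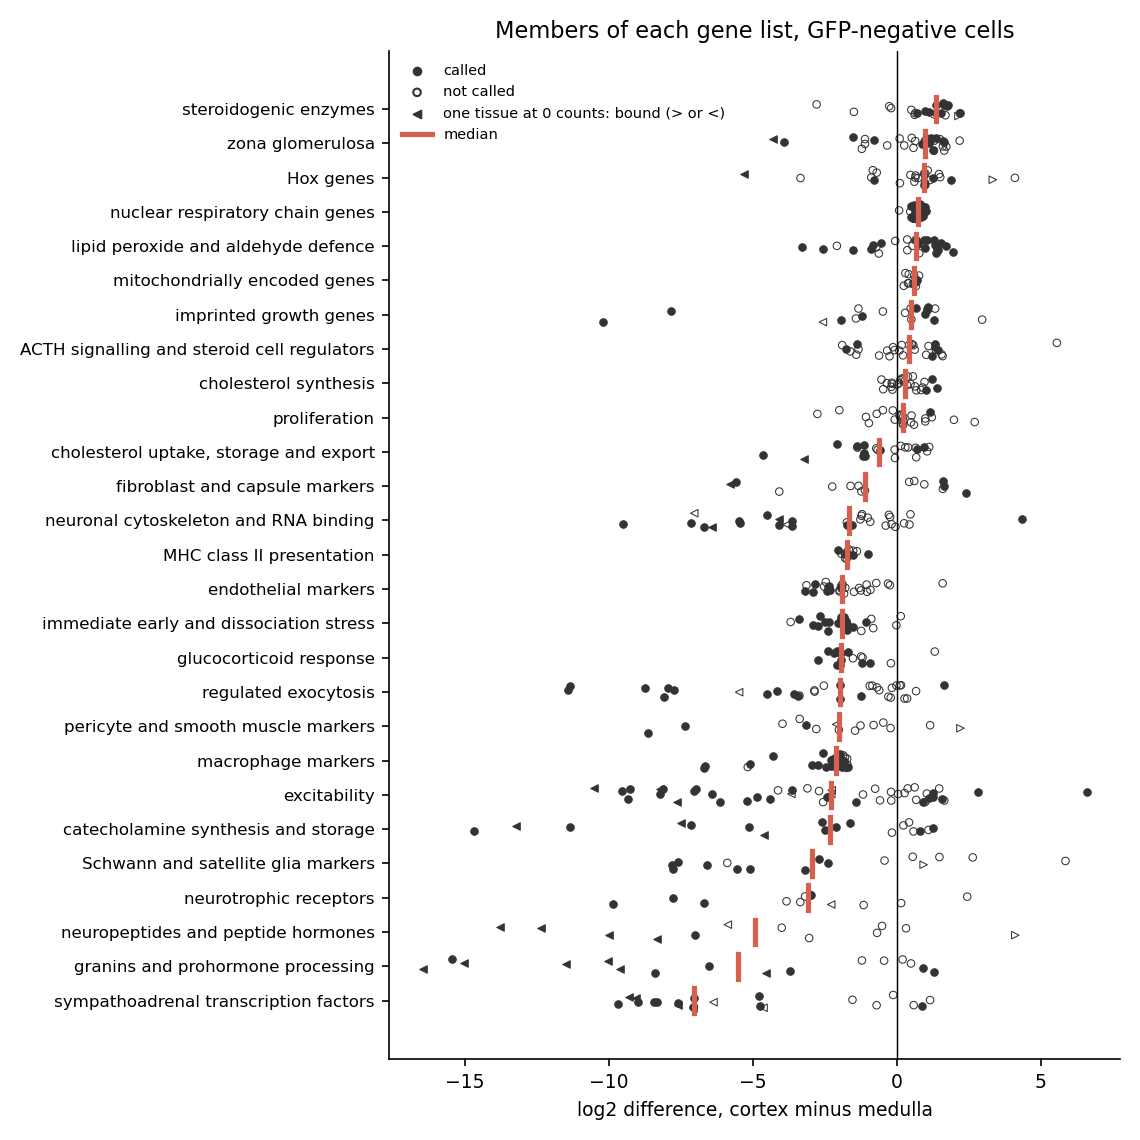
Log2 difference, cortex minus medulla, of each tested member of 27 gene lists; filled symbols passed the test, open ones did not, arrowheads are bounds for genes at 0 counts in 1 tissue, and red bars are list medians. Chromaffin lists reach below -10 at the bottom, the macrophage, stress and glucocorticoid response lists centre near -2, and the respiratory chain genes form a narrow group between 0 and 1.1.

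Immediate early and stress genes were higher in medulla for 17 of 23 tested, beside 10.6% of all genes, with 0 higher in cortex. In every medullary library 21 of 23 were above, beside 26.1% of all genes. Fos was at 648, 976 and 837 CPM in the cortical and 3597 and 3096 CPM in the medullary libraries (log2 2.03, SE 0.30, adjusted p = 0.0023). Egr1 was at 278, 432 and 297 CPM against 1457 and 2059 CPM and Atf3, a factor of the stress response, at 135, 181 and 222 CPM against 896 and 1498 CPM. Zfp36, which destabilises inflammatory mRNA, was at 534, 576 and 639 CPM against 2564 and 3391 CPM (log2 2.35, SE 0.26, adjusted p = 0.00068). The chaperone partner Dnajb1 was at 205, 203 and 192 CPM against 1074 and 1433 CPM (log2 2.65, SE 0.26, adjusted p = 0.00043). All 5 calls held, and no library of one tissue reached into the other. The summed list was at 6648, 7759 and 7272 CPM in the cortical and 20339.5 and 24420.1 CPM in the medullary libraries. Its calls numbered 12 to 18 over the 5 fits without 1 library. Macrophage markers and corticosteroid-induced genes moved with these genes in the same libraries, and the part of either was not tested.

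Genes induced by corticosteroids were higher in medulla for 12 of 17 tested, beside 10.6% of all genes, with 0 higher in cortex. Tsc22d3, the leucine zipper GILZ, was at 359, 324 and 257 CPM in the cortical and 1388 and 1225 CPM in the medullary libraries (log2 2.06, SE 0.32, adjusted p = 0.0027). Fkbp5, a chaperone that restrains the glucocorticoid receptor, was at 35.2, 39.2 and 27.1 CPM against 139 and 144 CPM (log2 2.06, SE 0.20, adjusted p = 0.00042). The metallothionein Mt1 was at 234, 245 and 322 CPM against 1071 and 1349 CPM and the kinase Sgk1 at 134, 199.8 and 141 CPM against 335 and 269 CPM. These 4 calls held, and none of the 4 overlapped between the tissues. The receptor itself, Nr3c1, was at 24.4, 24.8 and 30.7 CPM against 59.2 and 62.8 CPM, 2.29-fold higher in medulla (log2 1.20, SE 0.17, adjusted p = 0.0021), and held. Cdkn1a, a cell cycle inhibitor, was not called (adjusted p = 0.064). The median log2 difference was -1.93, that of the stress list was -1.92, and Dusp1 belongs to both. Macrophage markers moved with these genes too, with a median of -2.11, and their part was not tested.

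Imprinted genes differed in both directions. Of 19 tested, 5 were higher in cortex and 4 in medulla, beside 8.06% and 10.6% of all genes tested. Dlk1, an inhibitor of differentiation related to Notch ligands, was at 0.112, 0.147 and 0.0788 CPM in the cortical and 139 and 136 CPM in the medullary libraries (log2 10.18, SE 1.34, adjusted p = 0.0014). Rian, a maternally expressed non-coding RNA of the chromosome 12 cluster that also holds Dlk1, was at 73.8, 68.2 and 64.8 CPM against 29.3 and 37.6 CPM, higher in cortex. Both calls held, in opposite directions within that cluster. Meg3, a further RNA of the cluster, was at 372, 304 and 283 CPM against 204 and 199 CPM, also higher in cortex, a call lost in each of the 5 fits without 1 library (adjusted p = 0.057 to 0.19). Nnat, neuronatin, was at 0.859, 0.991 and 0.236 CPM against 121 and 206 CPM (log2 7.85, SE 0.66, adjusted p = 0.00022) and Impact at 54.9, 63.7 and 54 CPM against 136 and 129.6 CPM, both higher in medulla, and held. Ndn, necdin, was higher in cortex at 958, 866 and 904 CPM against 521 and 345 CPM, a call lost without cortical library 1 or medullary library 2 (adjusted p = 0.052 to 0.15). The cortical count of 5 was 1 or 2 without any one of the cortical libraries or without medullary library 2. Nap1l5, an imprinted gene outside the list, was at 0, 0.257 and 0 CPM against 247 and 124 CPM.

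Of 25 Hox genes tested, 3 were higher in cortex and 2 in medulla, a share near the 18.6% called either way among all genes tested. Hoxb5 was at 29.6, 22.9 and 22.4 CPM against 11.7 and 9.02 CPM, Hoxb7 at 141, 116 and 94 CPM against 66.4 and 56.2 CPM and Hoxb9 at 50.3, 55.2 and 61.9 CPM against 24 and 6.38 CPM, all 3 of the B cluster and higher in cortex. Hoxc9 was at 0 CPM in all 3 against 0.402 and 2.56 CPM and Hoxd8 at 8.25, 12.7 and 10.7 CPM against 15.7 and 21.1 CPM, both higher in medulla. No Hox gene was called without medullary library 2 (adjusted p = 0.07 to 0.23 for these 5). The medullary count was 0 without cortical library 1 and 1 without cortical library 2 or 3, and the cortical count was 6 without medullary library 1. Of 24 proliferation genes 1 was called, Mcm2 (84.1, 90.5 and 89.6 CPM against 41 and 38 CPM), a call lost in each of the 5 fits without 1 library (adjusted p = 0.072 to 0.18). Mki67, a marker of cycling cells, was at 10.3, 14.2 and 0.906 CPM against 25.6 and 9.87 CPM (adjusted p = 0.68), with the lowest value in the cortical library of the younger mice.

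Among genes with a mean of at least 50 CPM in the higher tissue, the 12 largest cortical ratios ran from 3.42-fold to 9.85-fold. Mybpc1, a myosin-binding protein, led at 41.2, 74.8 and 36.7 CPM in the cortical and 7.49 and 2.84 CPM in the medullary libraries (log2 3.30, SE 0.85, adjusted p = 0.024). Elovl7, which elongates fatty acids, was at 110.1, 88.6 and 84.3 CPM against 37.1 and 12.9 CPM and Fads2, a fatty acid desaturase, at 208, 184 and 174 CPM against 67.4 and 37.2 CPM. Pygm, the muscle form of glycogen phosphorylase, was at 139, 118 and 111 CPM against 53.6 and 16.7 CPM. Each cortical library was above each medullary one, and medullary library 2 was the lower of its pair for these 4. The call of Mybpc1 was lost without cortical library 1, cortical library 2 or medullary library 2 (adjusted p = 0.053 to 0.16), and that of Elovl7 was lost without cortical library 1, cortical library 2, cortical library 3 or medullary library 2 (adjusted p = 0.078 to 0.27). Gas2 (81, 56.1 and 71.2 CPM against 27.4 and 10.8 CPM), Tmem98 (85.8, 115 and 75.5 CPM against 33.7 and 18.7 CPM), Filip1 (57.5, 58.5 and 58.2 CPM against 19.4 and 13.7 CPM), Net1 (50.9, 61.6 and 47.5 CPM against 19.4 and 11.4 CPM), Hoxb9, Cyp11b1 and Hsd3b1 were also in the set, and 2 of the 12 were steroidogenic enzymes. The calls of Fads2, Pygm, Gas2, Tmem98, Filip1 and Net1 held. The 12 largest medullary ratios ran from 2163-fold for Nap1l5 to at least 90224-fold for Chgb, and 11 of these 12 genes had at most 3 counts in the cortical libraries together.

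The same tissue contrast among GFP-positive cells gave 3236 calls, 15.5% of the genes tested. It shares the estimate of the spread with the contrast above but no library. Of the GFP-negative calls 1638 were also GFP-positive calls in the same direction, 42.1% of the former and 50.6% of the latter, and 57 were called in opposite directions. The test of the difference between gates called 337 genes, 1.61%, with cortex minus medulla larger in GFP-negative cells for 158 (0.756%) and smaller for 179 (0.857%). Of 49 genes tested in the catecholamine, granin and peptide lists 4 were called: Scg3, Scg5, Pcbd1 and Maob. The cortical side of the chromaffin genes differed in level, Chgb being at 0 in GFP-negative cortex with 19 ± 31.8 CPM in GFP-positive cortex and 3847 ± 1182 CPM in GFP-positive medulla (mean ± SD, n = 3 each).

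Of 31 zona glomerulosa genes 5 had a called difference between gates, beside 1.61% of all genes tested. Each of the 5 had a smaller tissue difference among GFP-negative cells. Cyp11b2 differed by log2 1.29 in GFP-negative and 5.79 in GFP-positive cells (difference -4.50, SE 0.74, adjusted p = 0.026), with 77 ± 22.4 CPM in GFP-positive cortex and 1.29 ± 1.39 CPM in GFP-positive medulla (mean ± SD, n = 3 each). The angiotensin receptor Agtr1b had a difference between gates of -5.31 from a GFP-positive log2 of 6.81. The pairs of log2 differences, GFP-negative first, were 0.94 and 3.47 for the adaptor Dab2, 1.64 and 3.77 for Nkd1 and -1.21 and -5.10 for Agtr2, which was the member higher in medulla. Nr0b1, the DAX-1 repressor of steroid cells, was at 21.6, 29.7 and 14.4 CPM against 8.4 and 6.13 CPM among GFP-negative libraries, with 3.45 ± 1.94 CPM in GFP-positive cortex and 0.0172 ± 0.0298 CPM in GFP-positive medulla (mean ± SD, n = 3 each) and a single count in the GFP-positive medullary libraries.

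In other genes the GFP-negative contrast was the larger. Rgs5 differed by log2 -7.36 in GFP-negative and -1.37 in GFP-positive cells (difference -5.99, SE 1.08, adjusted p = 0.03). Ndufa4l2 differed by -8.64 and -4.75. Some genes changed direction. Ctsh was lower in cortex than in medulla among GFP-negative cells (-1.01) and higher among GFP-positive cells (1.05), with a difference of -2.06, SE 0.20, adjusted p = 0.0069. Gpx1 (-0.55 and 0.65) and the lipid droplet protein Plin2 (-0.57 and 0.46) did likewise. The count of 337 was 56 without medullary library 2, 60 to 80 without 1 of the cortical GFP-negative libraries and 93 with age as a covariate. Libraries 2 and 3 of GFP-positive medulla came from mice of 2.5 months and both libraries of GFP-negative medulla from mice of 3.5 months, so age and gate cannot be fully told apart within medulla.

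**Figure D5:**
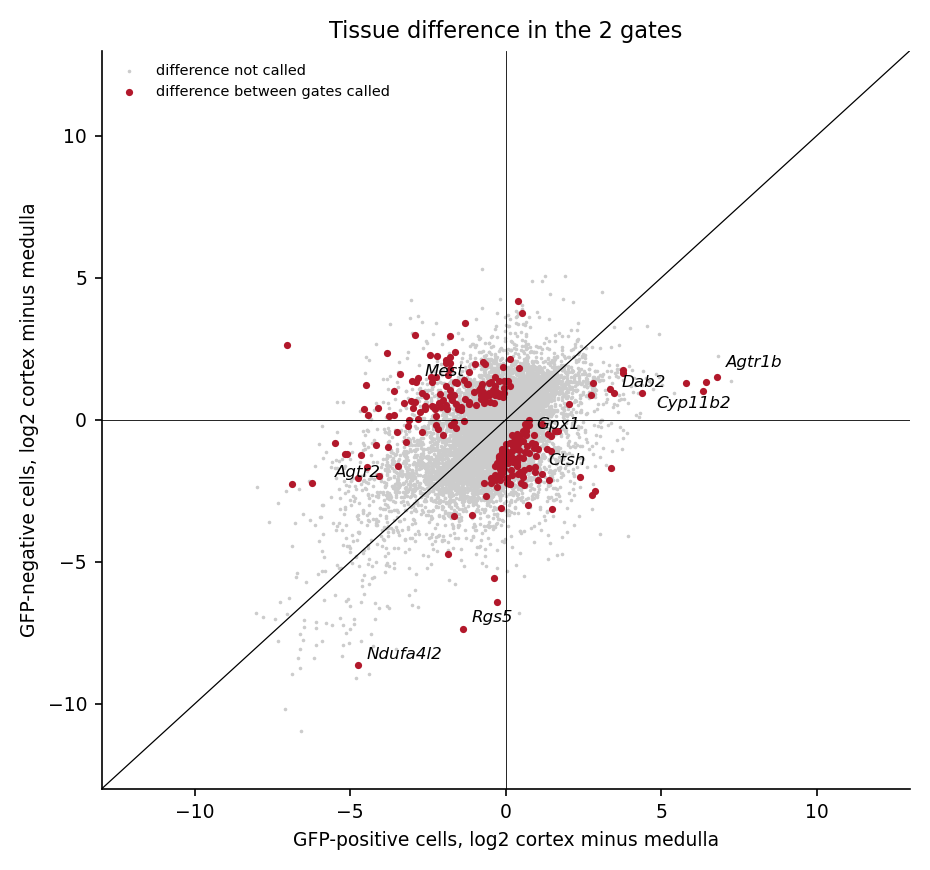
Log2 difference, cortex minus medulla, in GFP-positive cells (horizontal) and GFP-negative cells (vertical) for 17968 genes with more than 3 counts in each of the 4 groups; red points are the 288 of them whose difference between gates passed the test, and the diagonal marks equal differences. Cyp11b2 and Agtr1b lie far to the right and close to the horizontal line at 0, and Rgs5 and Ndufa4l2 far below it.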

How the data were processed

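RNA of sorted cells was copied by template switching with 17 PCR cycles and fragmented by transposase, per the labels' protocols, with no molecular identifiers, so intervals and floors cover counting error only. The authors deposited raw read counts per gene. Tools named in the submitters' processing notes are bcl2fastq 2.19.1, GSNAP, featureCounts 1.6.0 and DESeq2 1.18.1, with mm10. A count was seen for 34475 of 49671 genes, and 49326 carried a symbol, while 92 spike-in sequences (10 counts in all) were left out. The deposited comparison tables of other contrasts were not used.

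The counts of all 11 libraries, 1 mean per group, were fitted with edgeR 4.0.16 (quasi-likelihood, low-count filter by group, TMM) in R 4.3.3, and the contrast GFP-negative cortex minus medulla was tested with Benjamini-Hochberg adjustment over 20893 genes. The test was checked on simulated counts, with libraries drawn independently and the same dispersion for all genes. That check does not cover shared pools or genes absent from a tissue. DESeq2 1.42.0, limma 3.58.1 (voom) and other settings were alternatives. Named genes are the 12 largest called, non-overlapping ratios in each direction at a mean of at least 50 CPM, and list members led by level, by role or by going against their list. The members and lists were chosen with earlier results of these data known. No list was tested as a set. Some of the genes so chosen are not reported here.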

Additional observations from a re-analysis of the deposited data

Results flagged for a closer look

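The difference between cortex and medulla was not the same in GFP-negative and GFP-positive cells for 337 genes, by the interaction term of the same edgeR fit (Benjamini-Hochberg adjusted p under 0.05). The values here are the GFP-negative minus the GFP-positive log2 difference, cortex minus medulla. Among genes of the zona glomerulosa and its regulation this was -4.50 for Cyp11b2, -5.31 for Agtr1b, -2.53 for Dab2, -2.13 for Nkd1, -5.83 for Nr0b1 and 3.89 for Agtr2. Chromaffin and neuronal genes gave -7.98 for Scg3, 3.95 for Scg5, 1.82 for Pcbd1, 2.49 for Maob, -6.69 for Hand2os1, -6.40 for L1cam and 6.11 for Kcnd3. Scg3, Hand2os1, L1cam and Kcnd3 had at most 1 count in 1 GFP-negative tissue, and Nr0b1 1 count in GFP-positive medulla, so that their fitted values depend on the prior count and are no bounds. Lipid and lysosome genes gave -1.03 for Plin2, -1.01 for Npc2, -1.03 for Lrp1 and -2.06 for Ctsh. Redox, vessel and response genes gave -1.20 for Gpx1, -1.74 for Hmox1, -5.99 for Rgs5, -3.89 for Ndufa4l2, -0.74 for Fth1, ferritin heavy chain, and -1.16 for Sgk1. The groups of 3 and 2 libraries were too small for a test of single outlying samples.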

How the results depend on the processing

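The count of 3892 genes was within 1.5 times of its value when the 5 GFP-negative libraries were fitted alone (4028), with total counts (4323), DESeq2's size factors (3867), DESeq2 (5315), voom (5103), no filter (3695), a filter at 1 CPM in 2 libraries (4190) and age as a covariate (3441). Of the main calls 82.5% to 99.1% were also made under these settings. A fit with replicate number as a block made 78.6% of them, and fits without 1 cortical GFP-negative library made 53.4% to 69.1%. Total counts moved the share of calls higher in cortex from 43.2% to 52.7%. A test against a 2-fold change called 642. Leaving out 1 library gave 1411 to 3720. The difference between gates called 1553 genes with DESeq2, 93 with age as a covariate, 176 with the replicate block and 23 against a 2-fold change, and 56 to 489 without 1 GFP-negative library. Replicate numbers were used as a block in a fit that called 3339 genes between the tissues. Deviations of same-numbered libraries from their group means correlated at 0.0852 and 0.0217 over 2 shared numbers. Deviations of 2 medullary libraries mirror each other, so these values cannot decide whether the numbers pair libraries. The labels tie no library to a pool, and the numbers were not taken as pairs. Medullary library 2 alone held Isl1 and Prph: without it their log2 differences were 0.0 and 0.0, and without library 1 they were -10.21 and -10.88. With 2 medullary libraries, genes below about 0.1 CPM could not be told from 0.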

Other observations

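Among the GFP-negative cells, some genes outside the lists had large ratios of cortex to medulla, and those given here were chosen after their values were seen. Rgn, the calcium-binding protein regucalcin, was at 1.68, 5.69 and 3.46 CPM in the cortical and 0 and 0.0406 CPM in the medullary libraries (adjusted p = 0.0077), a ratio of 189-fold (95% counting interval 33.6 to 7473). Armh1 was at 7.09, 9.44 and 8.78 CPM against 0.11 and 0 CPM (adjusted p = 0.018) and Catsperd, a subunit of a sperm calcium channel, at 3.4, 4.59 and 3.78 CPM against 0.0731 and 0 CPM (adjusted p = 0.01). Adh7, an alcohol dehydrogenase that acts on retinol, was at 29.6, 52.4 and 20.2 CPM against 1.43 and 2.44 CPM (log2 4.14, SE 0.89, adjusted p = 0.011), and the kinase Frk at 10.0, 14.5 and 10.6 CPM against 0.767 and 0 CPM (log2 4.88, SE 0.85, adjusted p = 0.0047). Each was called higher in cortex. Without medullary library 2 the adjusted p was 0.12 for Armh1, 0.076 for Catsperd and 0.07 for Adh7.

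Several abundant genes outside the lists were higher in medulla. B2m, the light chain of class I antigen presentation, was at 1909, 2132 and 2638 CPM against 6579 and 6670.5 CPM (log2 1.57, SE 0.21, adjusted p = 0.0013). Tmsb4x, an actin-binding peptide abundant in leukocytes, was at 2496, 3047 and 3684 CPM against 9047 and 10946 CPM (log2 1.70, SE 0.36, adjusted p = 0.011) and Fth1, ferritin heavy chain, at 6123, 5849.7 and 5849 CPM against 8760.4 and 8466 CPM (log2 0.54, SE 0.10, adjusted p = 0.0077). The call of Tmsb4x was lost without medullary library 2 (adjusted p = 0.072). Ly6d, a surface protein, was higher in cortex at 6123, 4905 and 3342 CPM against 2506 and 1121 CPM (log2 1.40, SE 0.43, adjusted p = 0.047), a call lost without cortical library 1, cortical library 2 or medullary library 2 (adjusted p = 0.094 to 0.29). Macrophage markers moved with B2m, Tmsb4x and Fth1 in the same libraries, and their part was not tested.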
